A study of Mus musculus with 8 samples.

Results

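The genes described here are 10 interferon-induced GTPases of the mouse, 5 guanylate-binding proteins (Gbp2, Gbp3, Gbp6, Gbp7 and Gbp8) and 5 immunity-related GTPases (Ifi47, Igtp, Iigp1, Irgm1 and Irgm2). They were taken by symbol, as all probe sets to which the platform annotation gives exactly 1 of these symbols. This gave 14 probe sets of the 45101 on the array, and these genes are 10 of the 16396 genes tested. All 14 passed the filter on dim values (a level no lower than the median of the array on 2 or more of the 8 arrays). Gbp2, Gbp6, Gbp7 and Iigp1 have a pair of probe sets each and the other 6 genes have 1.

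The study asked how islets change after transfer of diabetogenic T cells and what an antibody against interferon-γ (IFN-γ) alters. The hosts were NOD.Scid mice, a diabetes-prone strain made unable to form its own T and B cells, while macrophages and other innate cells remain. Islets were cut from frozen sections by laser capture, and each array carries amplified RNA pooled from 5 mice. The diabetogenic group received CD4+ T cells from BDC2.5 mice, which carry 1 transgenic receptor that reacts with islets, and was sampled on days 3, 4 and 8 (3 arrays). Protected mice were given these T cells and 2 doses of antibody against IFN-γ, the first on day -1 and the second on day 2 relative to transfer, and were sampled on days 3, 4, 5 and 8 (4 arrays). The untreated group received neither (1 array, day 0). The labels name no control antibody in the diabetogenic group, so an effect of any injected antibody cannot be told apart from one of blocking IFN-γ. The ages of the mice are not given in the sources used here.

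Each group and day has 1 array, so no value below has a spread between mice, and precision is limited by how few arrays there are. Array medians of intensity lay between 3.14 and 3.96, and values below them are dim readings in which no order between arrays is read. The bright end was less alike: on the diabetogenic array of day 4 the 99th percentile was 25.6 and 0.85% of probe sets reached 8 times the median, against 67.0 to 94.9 and 2.0% to 5.34% on the other arrays. The ratio of 3′ to 5′ control probe sets for Actb, a sign of RNA length, ran from 1.86 to 24.3 over the arrays. The hybridisation controls spiked into the samples were at background on both day 3 arrays and on the untreated one (medians of 1.48 to 2.28) and bright on the other 5 arrays (551 to 1712). Groups compared within a day lie on the same side of this split, whereas any change between days 0 or 3 and days 4 to 8 cannot be told apart from it. Ins2, the beta cell's insulin transcript, read 3409 to 4471 on diabetogenic, 3779 to 6359 on protected and 4277 on the untreated array. Most of the other beta cell markers did not follow it: the glucose transporter Slc2a2 had 73.7, 3.79 and 1.76 on diabetogenic arrays, 75.8, 8.19, 11.7 and 5.37 on protected arrays and 161 on the untreated array. The median of the 8 markers against untreated was -2.96 in diabetogenic and -2.37 in protected islets on the log2 scale, with 0 of 8 passing in either. In bulk islet RNA, fewer cells of a type and less RNA per cell cannot be told apart.

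IFN-γ binds a receptor that signals through the kinases Jak1 and Jak2 to transcription factors of the STAT family and, in a second step, of the IRF family. STAT dimers bind a DNA element known as GAS (gamma-activated site) and IRF proteins bind one known as ISRE (interferon-stimulated response element). Guanylate-binding proteins (GBPs) and immunity-related GTPases (IRGs) are among the most strongly induced products of this pathway in mouse cells. Both families are best known for attacking the membranes of vacuoles in which parasites and bacteria live. Among the IRGs, Iigp1 and Ifi47 are effectors that load onto such vacuoles, and Irgm1, Irgm2 and Igtp are regulators that keep the effectors inactive on the cell's own membranes.

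The promoters were searched for these elements, and are shown here because the elements are what most of them share in sequence. RefSeq's table for GRCm38.p6 gave a window of 250 bases before to 50 bases after the start of transcription for 7 of the 10 genes. The ISRE was searched as 2 copies of GAAA with any 2 bases between them and the GAS as TTCNNNGAA, both on either strand. The ISRE was found in 6 of the 7 genes, against 3.99% of the 27025 genes in the table. The GAS was found in Gbp7, Igtp and Irgm2, against 9.55% of genes. Ifi47 held neither in this window. In the stretches of 60 bases below, read 5′ to 3′ on the strand of the gene, capitals mark ISRE matches, and in Igtp and Irgm2 the first capitals mark a GAS match.
Gbp7, chr3:142530258-142530317, plus strand: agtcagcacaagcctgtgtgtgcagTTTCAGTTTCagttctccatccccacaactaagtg
Gbp3, chr3:142559974-142560033, plus strand: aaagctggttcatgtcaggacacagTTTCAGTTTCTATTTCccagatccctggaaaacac
Gbp2, chr3:142620579-142620638, plus strand: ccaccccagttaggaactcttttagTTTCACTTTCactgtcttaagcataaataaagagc
Irgm1, chr11:48871416-48871475, minus strand: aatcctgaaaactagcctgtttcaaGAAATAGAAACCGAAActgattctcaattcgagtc
Igtp, chr11:58199497-58199556, plus strand: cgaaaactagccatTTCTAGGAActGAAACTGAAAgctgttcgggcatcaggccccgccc
Irgm2, chr11:58214888-58214947, plus strand: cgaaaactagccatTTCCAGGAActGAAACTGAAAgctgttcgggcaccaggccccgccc

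In the 3 GBP genes the ISRE reads as its reverse complement, with TTTC repeats, and in the IRG genes it reads forward. Gbp3 and Irgm1 each hold a pair of overlapping ISRE matches, which form the longer runs of capitals. Gbp7 also holds 2 GAS matches further upstream, TTCCAGGAA ending at -98 and TTCTCAGAA ending at -79 relative to the start of transcription. Igtp and Irgm2 are neighbours on chromosome 11 with no protein-coding gene listed between them, and their promoters were 91.1% identical over 271 aligned columns. Gbp7, Gbp3 and Gbp2 lie close together on chromosome 3, Gbp8 and Gbp6 on chromosome 5; Irgm1 and Ifi47 are also on chromosome 11, but 133 protein-coding genes separate Ifi47 from Igtp. Iigp1 lies on chromosome 18. A match of these letters is a description and not a measured binding site.

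All 10 genes were at their highest on the diabetogenic array of day 3, taking the brightest probe set of each. Of the 16396 genes tested, 7.84% had their highest value on that array. That array exceeded the next highest array of the same gene by 2.60-fold (Gbp2) to 8.30-fold (Gbp3). On day 3 each gene exceeded its protected level 2-fold or more in diabetogenic islets. On day 4 the brightest probe set of every member read lower than on day 3 in both groups. Its difference between the groups was also smaller. The protected day 4 values of Gbp3, Gbp6, Gbp8, Iigp1, Irgm1 and Irgm2 lay below the array median, as did that of Irgm1 on day 3. The dimmer probe set of Gbp7 had its highest value on the protected array of day 5 (10.5, against 8.76 on the diabetogenic array of day 3).

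**Figure D1:**
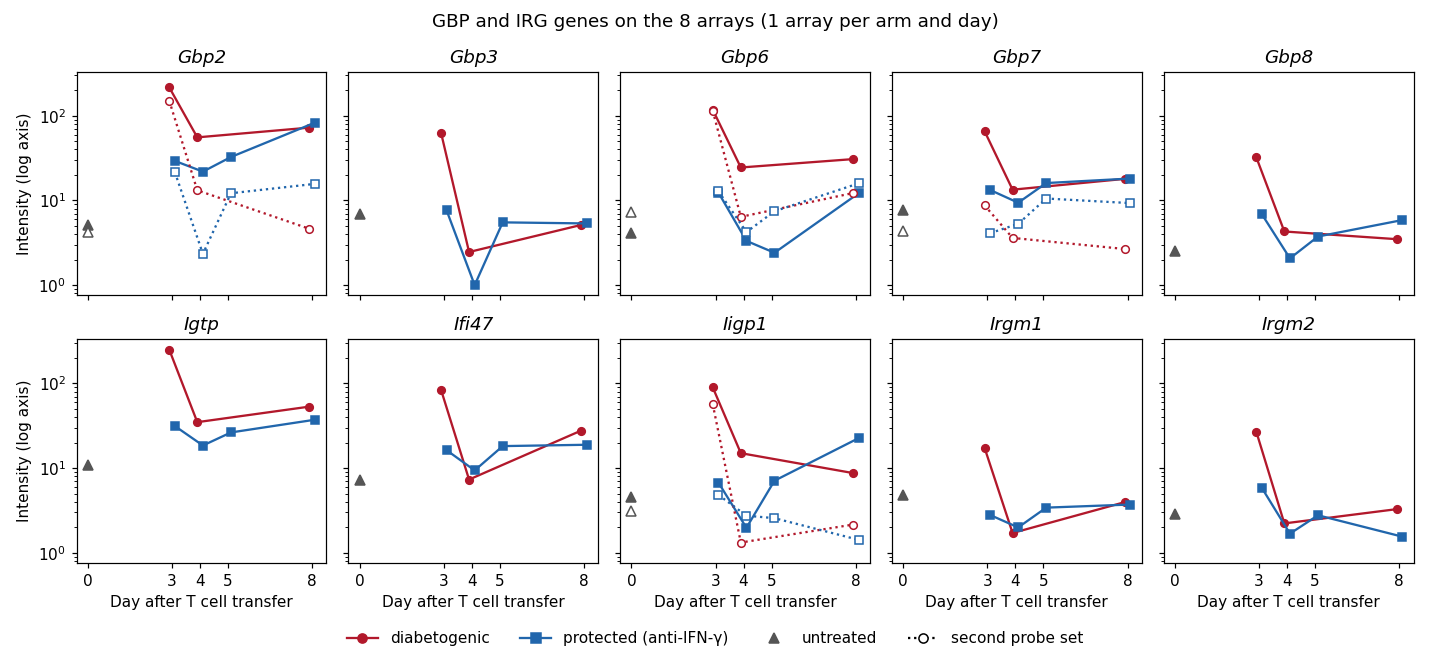
Intensity (log axis) of the 10 GTPase genes against day after transfer, with diabetogenic arrays as red circles, protected arrays as blue squares and the untreated array as a grey triangle at day 0. Filled symbols are the brighter probe set of a gene and open symbols with dotted lines the dimmer one. In every panel the highest point is the diabetogenic array of day 3.

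Gbp2, a GBP known in mice for control of Toxoplasma, had intensities of 216, 55.6 and 72.5 on diabetogenic arrays (days 3, 4 and 8). On protected arrays it had 29.3, 21.9, 32.6 and 83.1 on days 3, 4, 5 and 8, and on the untreated array 5.17. On the brighter probe set, whose values these are, all 7 injected arrays stood above the untreated one. By day 8 the protected array was slightly above the diabetogenic one. The ratio of diabetogenic to protected intensity was 7.39 for day 3, 2.54 for day 4 and 0.872 for day 8.

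For Gbp6 the groups also stood apart after day 3. Its brighter probe set read 118, 24.5 and 30.8 on diabetogenic arrays of days 3, 4 and 8. Protected arrays read 12.4, 3.33, 2.41 and 12.2 on days 3, 4, 5 and 8, and the untreated array 4.18. On the brighter probe sets Gbp6 was the only member for which all 3 diabetogenic arrays stood above all 4 protected ones, which 1.81% of all tested genes also did. The ratios were 9.49 on day 3 and 2.53 on day 8. The protected values of days 4 and 5 lay below the medians of their arrays (3.52 and 3.61), so no ratio is given for day 4.

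Gbp3 reached 63.2 on the diabetogenic array of day 3, with 2.46 and 5.14 on those of days 4 and 8. Protected arrays had 7.62, 1.0, 5.51 and 5.35 and the untreated array 6.88. Only the first array stood clear of the rest, and both day 4 values lay below the medians of their arrays. The probe set of Gbp3 is labelled by the platform as matching several transcripts of the gene.

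Gbp7, a GBP known in mouse macrophages for its part in the assembly of NADPH oxidase, had 66.0, 13.4 and 18.0 on diabetogenic arrays. Protected arrays had 13.3, 9.40, 16.1 and 18.2, and the untreated array 7.65. These are values of its brighter probe set, on which all injected arrays were above the untreated one and the groups overlapped from day 4 onwards. Gbp8 had 32.4, 4.30 and 3.49 on diabetogenic arrays, 6.86, 2.07, 3.75 and 5.86 on protected arrays, and 2.56 on the untreated array. It was at or above the array median on 5 of the 8 arrays, and both groups were dim after day 3.

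Among the IRGs, the regulator Igtp had 250.4, 34.8 and 53.2 on diabetogenic arrays (days 3, 4 and 8). Protected arrays had 31.4, 18.5, 26.4 and 37.3, and the untreated array 10.8. The diabetogenic array was the higher on each matched day, with ratios of 7.98, 1.89 and 1.43. Irgm2, whose promoter is nearly the same, had 26.9, 2.22 and 3.27 on diabetogenic arrays, 5.82, 1.68, 2.77 and 1.55 on protected arrays and 2.90 on the untreated array. It was at or above the array median on only 2 of 8 arrays, both of day 3, so the day 3 values alone can be read. The remaining regulator, Irgm1, had 17.4, 1.71 and 3.96 on diabetogenic arrays, 2.79, 1.99, 3.41 and 3.71 on protected arrays and 4.81 on the untreated array. Apart from the diabetogenic array of day 3, all arrays of Irgm1 were at or below 4.81, close to the array medians.

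The effector Iigp1 had 89.6, 15.0 and 8.73 on diabetogenic arrays for its brighter probe set. Protected arrays had 6.75, 1.97, 7.09 and 22.6, the second of them below the array median, and the untreated array 4.54. The order of the groups was opposite at the ends of the course: the ratio of diabetogenic to protected intensity was 13.3 on day 3 and 0.387 on day 8. These were the highest day 3 ratio and the lowest day 8 ratio among the brighter probe sets of the 10 genes. The effector Ifi47 had 84.2, 7.32 and 27.7 on diabetogenic arrays, 16.3, 9.38, 18.2 and 18.9 on protected arrays and 7.21 on the untreated array. Its diabetogenic array was the lower one on day 4 (ratio 0.780) and the higher one on days 3 and 8 (5.18 and 1.47).

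Differences between the groups were next taken per day on the scale of log2(intensity + 2.155), where the pseudocount is the median over arrays of the 25th percentile. On day 3 the diabetogenic value was 2-fold or more above the protected one for all 10 members, against 1.34% of the genes tested, and their differences ran from 1.87 (Irgm2) to 3.37 (Iigp1) with a median of 2.49. On day 4, 3 members (Gbp2, Gbp6 and Iigp1) were at least 2-fold higher, against 5.78% of genes, and the median was 0.58. For Gbp6 and Iigp1 the protected value of that day (3.33 and 1.97) was below the array median of 3.52. On day 8, 1 member (Gbp6) was at least 2-fold higher, against 9% of genes, and 1 (Iigp1) was at least 2-fold lower, against 13.9% of genes, with a median of 0.02. The medians over all genes were -0.02, -0.13 and -0.10 on these days. Each is a difference of 2 arrays and has no test.

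**Figure D2:**
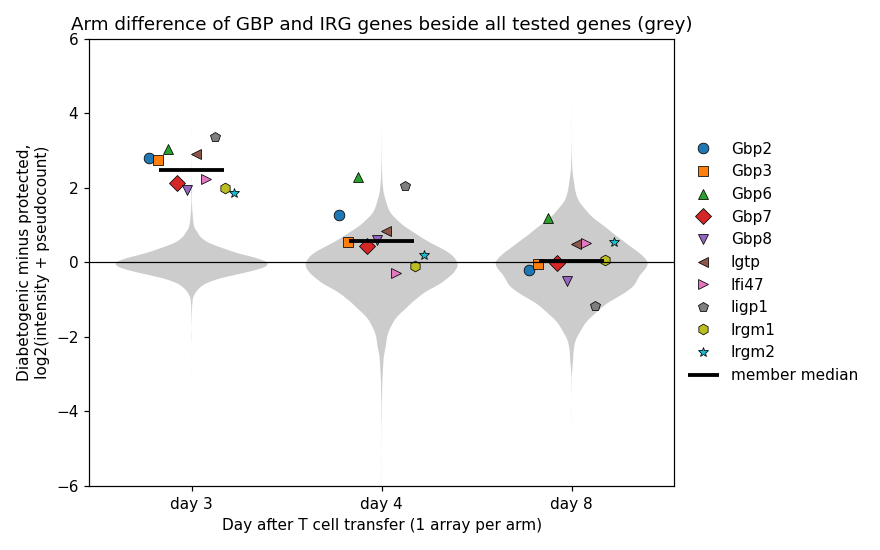
Difference between diabetogenic and protected islets (log2 scale) on days 3, 4 and 8, with grey shapes for the distribution of the 16396 genes tested, coloured symbols for the 10 GTPase genes and a black bar for their median. All 10 lie between 1.87 and 3.37 on day 3, and their median is 0.58 on day 4 and 0.02 on day 8.

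The groups were tested over the matched days with day as a block. All 10 differences were positive, with a median of 0.98 against -0.07 over all genes, and 1 member passed, against 0.0183% of genes tested that passed as higher (0.0915% passed as lower, with no member among them). With cyclic loess scaling the split over all genes was 8 higher and 8 lower, against 3 and 15 on the deposited scale. The member that passed was Gbp6, higher by 2.17 ± 0.45 (log2, SE, n = 3 arrays each, limma, adjusted p = 0.0383). The call is not firm: the adjusted p was 0.9997 without the block for day, 0.133 without the day 3 pair and 0.698 with the mean of the gene's probe sets, and further settings that end it are given with the processing alternatives. Igtp differed by 1.42 ± 0.59 (limma, adjusted p = 0.494), Iigp1 by 1.41 ± 0.52 (0.422) and Gbp2 by 1.29 ± 0.64 (0.572). The other 6 members differed by 0.65 to 1.08 with adjusted p of 0.449 to 0.614. Without the day 3 pair the median was 0.31 and 9 of 10 differences were positive, so the size of the matched-day difference rested largely on day 3. Igtp and Irgm2 were, with Gbp6, the members higher in diabetogenic islets on every matched day, 3 of 10 against 11.7% of genes, although Irgm2 was dim on days 4 and 8.

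A test of whether the group difference on day 3 exceeded that on days 4 and 8 was added after the values had been seen. All 10 members had positive estimates with a median of 2.06, and none passed (limma, smallest adjusted p = 0.9996). None of the 16396 genes passed it, while 229 had an unadjusted p under 0.05. The fit leaves 1 residual degree of freedom, and the prior from all genes had infinite degrees of freedom. The SEs of this fit therefore rest wholly on genes of like level and not on the members' own spread. The largest estimate was that of Iigp1, 2.93 ± 0.92, and the smallest that of Gbp6, 1.30 ± 0.99.

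Against the untreated array, the diabetogenic array of day 3 was at least 2-fold higher for all 10 members (2.81% of all genes), by 1.49 (Irgm1) to 4.90 (Gbp2) on the log2 scale. The diabetogenic array of day 4 was so for 4 members (9.81% of genes) and that of day 8 for 5 (14.3%). Protected arrays were at least 2-fold above untreated for 3 members on day 3 (2.2% of genes), 1 on day 4 (10.1%), 3 on day 5 (9.76%) and 6 on day 8 (9.76%). Member medians for the protected arrays were 0.80, -0.18, 0.40 and 1.11 on days 3, 4, 5 and 8. On the protected array of day 3 the members above 2-fold were Gbp2 (2.10), Igtp (1.37) and Gbp6 (1.20). All these counts are of brighter probe sets. On the dimmer ones the protected array of day 3 gave 1.90 for Gbp2 and 0.67 for Gbp6. The protected array of day 8 gave 1.49 for Gbp2, 0.94 for Gbp6, 0.82 for Gbp7 and -0.55 for Iigp1. For the dimmer probe set of Gbp7 the diabetogenic array of day 3 gave 0.75. These comparisons all share the single untreated array.

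**Figure D3:**
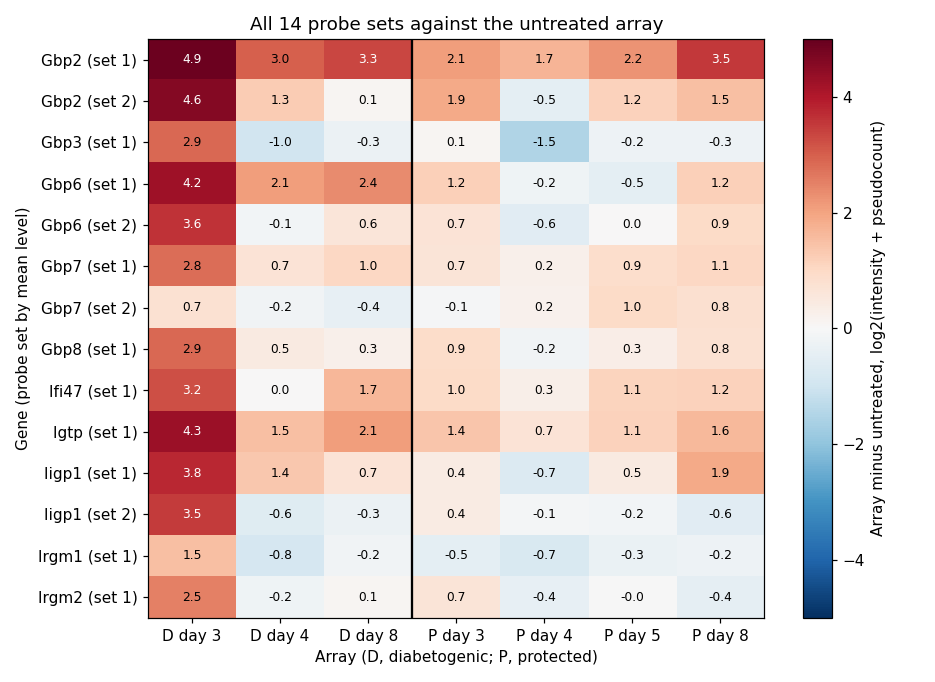
Log2 difference of each injected array from the untreated array for all 14 probe sets, with diabetogenic arrays (D) left of protected arrays (P) and red for higher. The first column, the diabetogenic array of day 3, runs from 0.7 to 4.9, and Gbp2 is the only gene whose brighter probe set is above 1 in every column.

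In the fit of all 8 arrays the diabetogenic arrays averaged above untreated for all 10 members, with a median of 1.57 against -0.10 over all genes. None of the 16396 genes passed in either direction (0% called, 450 with an unadjusted p under 0.05). Gbp2 had the largest member difference, 3.74 ± 1.20 (limma, adjusted p = 0.894), followed by Gbp6 with 2.90 ± 1.01 and Igtp with 2.63 ± 1.20 at the same adjusted p. Without the diabetogenic array of day 3 the member median was 0.85, and Gbp3, Irgm1 and Irgm2 had negative differences. In the protected group 7 of 10 members averaged above untreated, with a median of 0.49 (0.27 without the array of day 8 and 0.77 without that of day 4), and none of the genes tested passed (0% called, 371 with an unadjusted p under 0.05). Gbp2 again had the largest difference, 2.40 ± 1.16 (limma, adjusted p = 0.9998).

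Within the diabetogenic group, all 10 members were at least 2-fold lower on day 4 than on day 3 (26.5% of genes), with a median of -2.42, and all 10 on day 8 than on day 3 (21.6% of genes), with a median of -2.03. Between days 4 and 8 their median change was 0.37, and Ifi47 was the 1 member that was at least 2-fold higher on day 8 (17.7% of genes). In the protected group 5 members (Gbp3, Gbp6, Gbp8, Iigp1 and Irgm2) were at least 2-fold lower on day 4 than on day 3 (19.8% of genes). The day 4 values of all 5, from 1.0 to 3.33, lay below the array median of 3.52. On day 8, 4 protected members (Gbp2, Gbp3, Gbp6 and Iigp1) were at least 2-fold above day 4 (10.7% of genes). The median over the 10 members was 0.93. Of these 4, only Gbp2 had a day 4 value above the array median, so the size of the other changes cannot be read. The changes from day 3 cross the split in the spiked controls. The diabetogenic array of day 4 also had a low bright end as a whole, with a 99th percentile of 25.6 against 89.5 on that of day 3. Genes outside the families also read lower on it, such as Gcg (52.8 against 2205) and B2m (9.67 against 203), itself a target of IFN-γ. Others read higher, such as Csf1r (114 against 80.3) and Tyrobp (50.4 against 32.7). Of all genes, 9.76% were at least 2-fold higher on it than on day 3. The part of these array differences in the members' values was not tested.

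Straight lines over days were fitted to the 7 injected arrays. With 1 common slope for both groups, 9 of 10 members had a negative slope with a median of -0.07 per day on the log2 scale, and no gene passed (0% called, 1475 with an unadjusted p under 0.05, limma). Without the diabetogenic array of day 3 the median slope was 0.11 with 9 of 10 positive. The difference in slope between diabetogenic and protected islets was negative for all 10 members with a median of -0.36 per day, and no gene passed (0% called, 327 with an unadjusted p under 0.05). Without the diabetogenic array of day 3 that median was 0.013 and 5 of 10 were positive. Iigp1 had the largest such difference, -0.88 ± 0.33 per day (limma, adjusted p = 0.99996).

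The 4 genes with a pair of probe sets allow a check of the day 3 difference within a gene. All 8 of these probe sets were higher in diabetogenic than in protected islets on day 3, and 13 of all 14 probe sets were at least 2-fold higher, against 1.35% of the 28836 probe sets tested. For Gbp2 the differences were 2.80 and 2.69, for Gbp6 3.04 and 2.95, and for Iigp1 3.37 and 3.07 (brighter and dimmer probe set, log2). Gbp7 was the exception, with 2.14 for the brighter probe set and 0.80 for the dimmer, which read 8.76 in diabetogenic islets against 4.11 in protected islets on that day. That dimmer probe set had 3.61 and 2.67 on later diabetogenic arrays (days 4 and 8), 5.29, 10.5 and 9.30 on later protected arrays (days 4, 5 and 8) and 4.34 on the untreated array, and over matched days it differed by -0.27 ± 0.38.

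On later days not every pair had the same sign. On day 4, 2 of the 4 pairs had the same sign and on day 8 also 2.

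The dimmer probe set of Gbp6 had 114, 6.40 and 12.2 on diabetogenic arrays, 12.9, 4.23, 7.46 and 15.9 on protected arrays and 7.27 on the untreated array. It did not keep the groups apart after day 3: its differences were 0.42 on day 4 and -0.33 on day 8, where the brighter probe set gave 2.28 and 1.20. Tested on its own over matched days it differed by 1.02 ± 0.49 (limma, adjusted p = 0.625), and with every probe set in the fit the brighter one had an adjusted p of 0.0911.

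The dimmer probe set of Iigp1 had 56.7, 1.32 and 2.15 on diabetogenic arrays, 4.83, 2.74, 2.56 and 1.42 on protected arrays and 3.08 on the untreated array. It was at or above the array median on 2 of 8 arrays. Its differences of -0.49 on day 4 and 0.27 on day 8 were opposite in sign to the 2.06 and -1.18 of the brighter one. The dimmer probe set of Gbp2 had 150.4, 13.2 and 4.62 on diabetogenic arrays, 21.6, 2.34, 12.2 and 15.7 on protected arrays and 4.21 on the untreated array. Both Gbp2 probe sets put protected above diabetogenic islets on day 8, by -0.19 and -1.40. The brighter one belongs to a class of probe sets that the platform marks as able to bind other transcripts too, so near-identical GBP copies may share in its signal.

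**Figure D4:**
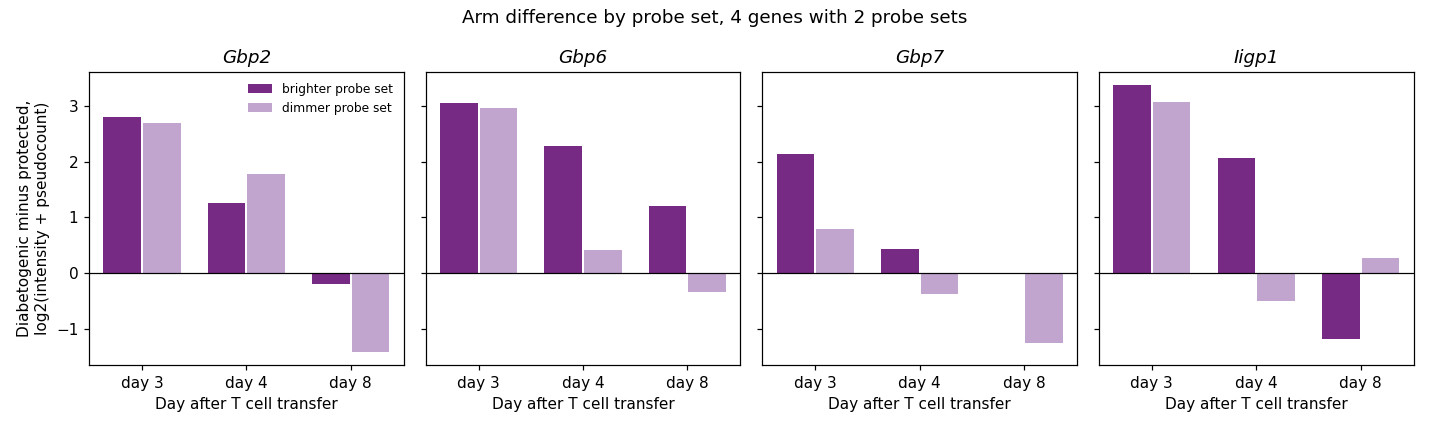
Difference between diabetogenic and protected islets (log2 scale) by day for the brighter (dark) and dimmer (light) probe set of Gbp2, Gbp6, Gbp7 and Iigp1. The 4 pairs all lie above 0 on day 3, and 2 of 4 pairs have the same sign on each of days 4 and 8.

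The values of the members were correlated over the 8 arrays. The correlation of each with the mean of the other 9 ran from 0.787 (Gbp2) to 0.978 (Gbp7), and without the diabetogenic array of day 3 from 0.128 (Irgm1) to 0.826 (Gbp7). Irgm1, Irgm2 and Gbp3 had the 3 lowest values without that array. These points share groups, days and the spiked control split, and the values are a description.

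Of the genes outside the 10, the one most like the member mean was Cxcl10, a chemokine that draws activated T cells (r = 0.959 over 8 arrays). It had 71.8, 2.24 and 6.14 on diabetogenic arrays, 10.3, 2.17, 2.57 and 6.02 on protected arrays and 2.07 on the untreated array. Wars, the tryptophan tRNA synthetase, followed with r = 0.958, then BC023105 (0.947), Lrrtm2 (0.935), the endothelial adhesion molecule Sele (0.932), 4930430F08Rik (0.931), Armc3 (0.927), Gm4951 (0.926), Piwil4 (0.924) and the lymphocyte activation antigen Cd69 (0.922). Without the diabetogenic array of day 3 the values of these 10 genes ran from 0.428 (4930430F08Rik) and 0.45 (Armc3) to 0.885 (Cd69). Several of them were dim. Outside that array Piwil4 and Cd69 reached at most 3.73 and 4.11. Lrrtm2, Sele, 4930430F08Rik and Armc3 reached at most 5.40, 5.45, 4.56 and 4.72 there. Much of the likeness of these dim genes without that array therefore rests on readings near or below the array medians. Of these 10 genes, 6 were also among the nearest with the pseudocount raised 4 times and 5 after quantile normalization. Gm4951, also called Ifgga2, is itself a GTPase of the IRG family. It had 111, 15.0 and 16.6 on diabetogenic arrays, 8.02, 3.89, 2.01 and 10.1 on protected arrays and 3.05 on the untreated array, and differed over matched days by 1.86 ± 0.46 (limma, adjusted p = 0.157).

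Upstream of the GTPases, the ligand transcript Ifng had 43.8, 17.4 and 3.80 on diabetogenic arrays, 27.6, 15.9, 31.8 and 7.62 on protected arrays and 1.92 on the untreated array. All injected arrays were above the untreated one, and the matched-day difference was 0.01 ± 0.42 (limma, adjusted p = 0.997). The antibody binds the protein, and these values are of the transcript. The receptor subunits Ifngr1 and Ifngr2 differed by -0.33 ± 0.36 and -0.53 ± 0.34, the kinases Jak1 and Jak2 by 0.28 ± 0.36 and -1.01 ± 0.42, the transcription factor Irf1 by 0.74 ± 0.45 and the feedback inhibitor Socs1 by -0.76 ± 0.34, none of which passed (limma, adjusted p of 0.499 to 0.832). Of the 17 tested genes of IFN-γ signalling none passed in either direction, with a median of -0.33.

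Irf1, which binds the ISRE, was on diabetogenic arrays at 42.9, 27.1 and 21.1, on protected arrays at 18.2, 16.1, 11.04 and 15.6, and on the untreated array at 10.8. Its 3 diabetogenic arrays were all above the 4 protected arrays, an order that 1.81% of all tested genes also had. Jak2 ran the other way on the matched days, with 31.2, 4.68 and 7.52 in diabetogenic islets against 40.3, 12.7 and 26.3 in protected islets.

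Among 32 tested targets of IFN-γ outside these families, none passed in either direction over matched days (0 of 32), 22 had positive differences, and the median was 0.27. On day 3, 14 of the 32 were higher in diabetogenic islets by 2-fold or more, against 1.34% of all genes, with a median of 0.84 beside 2.49 for the GTPases. Cxcl9, another chemokine for activated T cells, had 127, 31.9 and 89.3 on diabetogenic arrays, 8.60, 3.50, 15.2 and 56.8 on protected arrays and 1.20 on the untreated array, and differed over matched days by 2.27 ± 0.54 (limma, adjusted p = 0.114). The list has no single course, as the class II gene H2-Aa had 413, 160 and 2533 on diabetogenic arrays, against 519, 1053, 2220 and 2792 on protected arrays and 93.7 on the untreated array. The 7 tested genes of the list of other GTPases had a median of 0.01 (0 passing), near that of all genes, -0.07. They were Gbp2b, Irgc1, Irgq, Gm4951, Gm12185, Atl1 and Atl3, and the rest of the 27 listed had no probe set of 1 symbol. Of these 7 differences 4 were positive, the largest being 1.86 for Gm4951. Their median does not speak for the listed genes left untested. Among those are Tgtp1, Tgtp2, Gbp4 and Gvin1, whose shared probe sets are described further below. The 13 tested genes of autophagy and of partners at the vacuole had a median of -0.15 (0 passing), also near that of all genes.

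Markers of the other cells that captured islets can hold were set beside these results. On day 3 the summed intensity of the 8 T cell markers was 40.9 in diabetogenic and 40.3 in protected islets, with 5 of 8 higher in diabetogenic islets. That of the 12 macrophage and monocyte markers was 480 and 531, with 3 of 12 higher. The 6 endothelial markers summed to 33.1 and 37.0, with 1 of 6 higher. The summed intensity of the 10 GTPases on the same arrays was 964 in diabetogenic and 133 in protected islets. These sums are carried by a few bright probe sets, and single markers differed in both directions on that day: Mpeg1 had 43.0 in diabetogenic and 20.0 in protected islets, Tyrobp 32.7 and 19.9, Fcgr3 8.62 and 18.9, and Cd3e 3.19 and 7.56. Most T cell markers were dim. The part of these cells in the day 3 difference was not tested.

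Later days were less matched. On day 4 the T cell markers summed to 39.7 in diabetogenic and 63.2 in protected islets and the macrophage markers to 242 and 2081. The 8 acinar markers, of the exocrine tissue around islets, summed to 234 and 6004. On day 8 the macrophage markers summed to 2924 and 2374, and the T cell markers to 62.4 and 93.0. Over all days the macrophage sum ran from 242 to 2924 on diabetogenic arrays, from 531 to 2374 on protected arrays and stood at 109 on the untreated array, and the sum of the 4 B cell markers was at most 13.3, 21.8 and 12.6 in the same order. No defining marker was at 0, because the deposited values end near 1. The part of these cells in the day 4 and day 8 values of the GTPases was not tested.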

How the data were processed

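Gene expression was measured on 8 Affymetrix arrays of laser-captured mouse islets, each of about 30 ng of amplified RNA pooled from 5 mice, per the labels' protocols. The authors deposited linear intensities per probe set. The sources used here do not give their method of summarising or scaling. Probe sets were named from GEO's platform annotation of 2016 (34958 with 1 symbol, 932 with several, 9211 with none), and only those with 1 symbol were used.

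From these values, log2(intensity + 2.155) was computed with no further normalization. Probe sets at or above the array median on at least 2 of 8 arrays were kept, and each gene was represented by its probe set with the highest mean, leaving 16396 genes. Folds are on this scale, where changes of dim genes come out too small. Ratios of intensity are without the pseudocount.

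Fits used limma 3.58.1 in R 4.3.3 (lmFit, eBayes with a variance trend) with Benjamini-Hochberg adjustment over all 16396 genes and a threshold of 0.05, and were tested on simulated data. Groups were compared over days 3, 4 and 8 with day as the block that pairs the arrays, since the labels give the same day to 1 array of each group. Each group was compared with the untreated array over all 8 arrays, which assumes that the lone array varies like the days within a group. In the matched-day fit a gene's own spread has 2 residual degrees of freedom against 29.99 from all genes, so SEs rest mostly on genes of like level. That own spread is how far the group difference varied between days. It thus includes any change of that difference over the course. The p-values do not measure the spread between mice. Likeness is Pearson's r with the mean of the members' z-scored log2 values over 8 arrays. Promoters were aligned locally with Biopython (match 2, mismatch -3, gap -5 to open and -2 to extend).

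All 10 members are named with every probe set. Lists and named genes were 18 genes of IFN-γ signalling, 27 other GTPases, 34 other targets, 14 autophagy partners, marker lists, and the 10 genes most like the members. Members, lists and tests were chosen with earlier results of these data known. Alternatives covered the pseudocount, scaling, filter, choice of probe set, variance trend, day block and leaving out each array.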

Additional observations from a re-analysis of the deposited data

Results flagged for a closer look

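A probe set that the annotation gives to both Tgtp2 and Tgtp1, near-identical IRG genes, was left out of the comparisons because it has more than 1 symbol. It stood above the untreated array by 4.95 on the log2 scale on the diabetogenic array of day 3. Its intensities were 441, 64.0 and 102 on diabetogenic arrays (days 3, 4 and 8), 31.0, 12.9, 19.6 and 59.7 on protected arrays (days 3, 4, 5 and 8), and 12.2 on the untreated array. The diabetogenic array was the higher one on every matched day.

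A probe set given to both Gm4070 and Gvin1, very large interferon-inducible GTPases, was likewise outside the comparisons. It exceeded the untreated array by 1.10 on the log2 scale on the diabetogenic array of day 3, with 10.6, 4.01 and 3.53 on diabetogenic arrays, 4.80, 2.45, 2.02 and 3.54 on protected arrays and 3.78 on the untreated array. A probe set given to both Gbp8 and Gbp4 was also outside the comparisons and did not share this rise. It had 4.11, 9.16 and 5.48 on diabetogenic arrays, 2.83, 3.54, 8.22 and 12.8 on protected arrays and 7.15 on the untreated array. Its diabetogenic array of day 3 was below the untreated one, and its highest array was the protected one of day 8. None of these probe sets was tested.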

How the results depend on the processing

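The 10 of 10 members at least 2-fold higher on day 3 held under all 7 alternatives tried for that day. In the matched-day comparison the number of members that passed, 1 (Gbp6), was 0 with the pseudocount raised 4 times, with quantile normalization, with no filter, with the mean of probe sets, with every probe set on its own and with no replicate block for the day pairs, 2 with cyclic loess, and 0 to 3 when a day pair was left out. Gbp6 then differed by 1.66 (limma, adjusted p = 0.101), 2.66 (0.147), 2.17 (0.0918) and 1.59 (0.698) under the first 4 of these settings and by 2.17 (0.9997) with no block. Over its alternatives the adjusted p ranged from 0.0016 to 0.9997. Without the day 8 pair Gbp3, Gbp6 and Iigp1 passed, without the day 4 pair or with cyclic loess Gbp6 and Igtp, and without the day 3 pair none. Irgm1 ranged from -0.02 to 1.02 over left-out day pairs. The median of members ranged from 0.31 to 1.47. All genes passing were 18, against 8 with the pseudocount raised 4 times, 1 with quantile normalization, 10 with no filter, 1 with the mean of probe sets, 11 with no variance trend, 0 with no replicate block and 33 to 69 over left-out pairs.

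Against untreated islets no member passed under any alternative. The diabetogenic median of 1.57 was 3.04 with the day 3 array alone and 0.85 to 2.08 over left-out arrays, lowest without that of day 3. The protected median of 0.49 was 0.27 to 0.77 over left-out arrays. Over left-out diabetogenic arrays Gbp3 ranged from -0.64 to 1.27, Irgm1 from -0.52 to 0.65 and Irgm2 from -0.053 to 1.31, negative without the diabetogenic array of day 3. In the protected group 1 gene of all passed with every probe set on its own and 1 with quantile normalization, and 0 to 1 over left-out arrays.

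The median common slope of -0.07 ranged from -0.29 to 0.11 over left-out arrays and was 0.19 over days 4, 5 and 8 only. Genes passing there were 13 with cyclic loess, 14 over days 4, 5 and 8, 2 with no variance trend and 0 to 7 over left-out arrays. The median slope difference of -0.36 ranged from -2.52 (without the diabetogenic array of day 8) to 0.013 (without that of day 3), with 0 to 3 genes passing. For day 3 against days 4 and 8 the median of 2.06 was 1.47 with cyclic loess, and 4 genes passed with no variance trend.

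Members at least 2-fold higher were 5 on day 4 with quantile normalization (9.94% of all genes) and 5 with cyclic loess (7.27%), and on day 8 they were 0 with the pseudocount raised 4 times (1.31%), 0 with the mean of probe sets (7.06%) and 3 with cyclic loess (10.1%). Probe sets at least 2-fold higher on day 8 were 0 with the raised pseudocount. Of the 10 genes most like the members, 6 stayed with the raised pseudocount and 5 with quantile normalization. The cause of these shifts was not tested. Dim members such as Irgm1 and Irgm2 lie near the array median on most arrays, where their values have little signal over background.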
